A study of Homo sapiens with 4 samples.

Results

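The H3K9me3 regions of human chromosome 8 in BJ-HELT cells are described here: 245 regions out of the 5211 in the deposited list, or 4.70% of it. Members were all regions that the list places on chromosome 8 of the build hg19. The parts compared by midpoint were the short arm (below 43.8 Mb), the long arm from 46.8 Mb to the bound of the end, a tandem repeat locus inside it at 86.5 to 87.1 Mb, and the end of the chromosome, whose first region starts at 135339601. BJ-HELT is an established line of human foreskin fibroblasts that express hTERT, the catalytic subunit of telomerase, and the SV40 early region, so it is an immortalized and not a primary fibroblast. Cells were at passage 10 to 11. The study made 4 libraries by chromatin immunoprecipitation and sequencing (ChIP-seq): 2 precipitates with a rabbit antibody against H3K9me3 and 2 input DNA libraries without antibody. The question was where H3K9me3 lies in these cells. The list gives 1 whole number per region and none per library. The number was read here as the count of ChIP reads, and which libraries it covers is not stated. Replicate error could therefore not be given for any value, and no difference was tested. The chromosome and the bounds of its parts were chosen by the measured number, length and count of regions in this same list, and all comparisons of these measures are therefore a description.

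H3K9me3 is the trimethylation of lysine 9 on histone H3. It is written by enzymes such as SUV39H1, SUV39H2 and SETDB1 and bound by HP1 proteins, and it marks constitutive heterochromatin, which includes the satellite repeats at centromeres, tandem repeat arrays and many transposable elements. In SETDB1-dependent silencing, KRAB zinc finger proteins bring the enzyme to particular sequences. Calling programs for broad marks join neighbouring enriched windows into one region, so the length of a region depends on the join distance as well as on the chromatin.

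Most of the chromosome 8 count lay in very few regions. The 245 regions covered 1208.8 kb and held 92277 counts, which was 4.15% of the count of the whole list. The single highest region had 28.7% of the chromosome's count, and 3 regions together had 59.6%. The 5 regions beside the centromere made up 2.04% of the regions and 9.78% of the covered length, and they held 55.7% of the count (95% Wilson interval 55.4 to 56.0%). The tandem repeat locus, with 2 regions, had 11.5% of the covered length and 14.04% of the count (13.8 to 14.3%). The remaining 238 regions held 30.3% of the count on 78.7% of the length. Intervals of shares cover counting error only, and reads of one PCR product are not independent. Depth per library was not known.

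**Figure D1:**
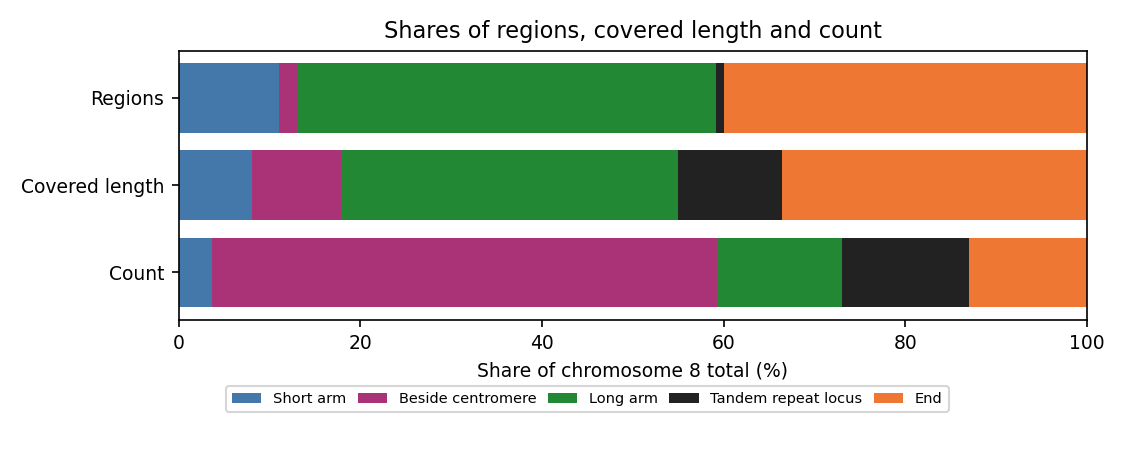
Stacked bars show the share (%) of chromosome 8 regions, covered length and count in 5 groups of regions; the short and long arms are drawn without the 5 regions beside the centromere and the 2 of the tandem repeat locus. The regions beside the centromere take 2.04% of the regions but 55.7% of the count, and the end takes 40% of the regions but 12.96% of the count.

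By number, the order was different. The short arm held 29 regions, or 0.66 per Mb, and the long arm up to the end held 117, or 1.33 per Mb. The end held 98 regions in 11.3 Mb, or 8.70 per Mb. That was 40% of the chromosome's regions. The end was also the part with the largest covered share after the locus, 3.60% of its sequence against 0.72% in the long arm and 0.32% in the short arm. By share of the count, the long arm came first with 58.0% (57.7 to 58.4%), followed by the end with 12.96% (12.7 to 13.2%) and the short arm with 10.0% (9.83 to 10.2%). A single region had its midpoint between the arms and carried the other 19.0%. Without the locus, the long arm held 44.0%. Without the 2 regions beside the centromere as well, it held 13.7%, close to the end. The short arm without its 2 regions beside the centromere held 3.60%.

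The regions beside the centromere were the densest long regions of the chromosome. In hg19 the centromere itself is an unsequenced stretch, and satellite repeats flank it. No region lay between 43839001 and 46838800, a stretch of 2999.8 kb. On its short-arm side, 3 regions followed each other with 1.2 and 2.2 kb between them and filled 95.2% of 71.0 kb. The outermost (43768001 to 43777600) measured 9.6 kb and held 1266 counts, or 131.9 counts per kb. The middle one (43778801 to 43813800) measured 35.0 kb and held 4661 counts, or 133.2 per kb. The innermost (43816001 to 43839000) measured 23 kb and held 17508 counts, or 761.2 per kb, the highest density on the chromosome.

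The long-arm side showed the same order of densities. Its inner region (46838801 to 46877600) measured 38.8 kb and held 26481 counts, the highest count on the chromosome, at 682.5 per kb. The next one out (46879801 to 46891600) began 2.2 kb further on, measured 11.8 kb and held 1459 counts, at 123.6 per kb. On both sides the region that touched the empty stretch thus had over 5 times the density of its neighbours, which lay between 123.6 and 133.2 per kb. Further out the density was at the level of the arms. On the short-arm side the next region (43628001 to 43631800) had 26.6 counts per kb, and on the long-arm side the next one (47068601 to 47072000) had 32.6. The bound of 43.8 Mb divides the short-arm group, with midpoints at 43.796 Mb just inside the short arm and 43.828 Mb just outside it. Whether copies of satellite repeats missing from hg19 raised these densities was not tested.

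The tandem repeat locus held the longest region of the chromosome. This part of the long arm is known for a macrosatellite, an array of long repeat units that contain copies of REXO1L, a family related to an RNA exonuclease. The RefSeq gene table (GRCh38.p14) lists 11 chromosome 8 entries of that name, none of them protein-coding. Its positions are of another build and were not used, so overlap with the array was not computed. The longest region (86726401 to 86842400) measured 116 kb and held 11024 counts, or 95.03 per kb (exact 95% Poisson interval 93.3 to 96.8, counting error only). The other (86553201 to 86576400) measured 23.2 kb and held 1936 counts, or 83.4 per kb (79.8 to 87.3). These densities were close to each other, lay below every density beside the centromere and were about 3 times the chromosome median of 28.3. Exactly 150 kb without a region separated these regions. Whether that stretch holds unassembled sequence was not tested, nor whether repeat copies missing from hg19 raised the densities of the locus.

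The locus stood alone in its neighbourhood. The nearest region before it (84650001 to 84653200, 97 counts, 30.3 per kb) lay 1.90 Mb away, and the nearest one after it (91186601 to 91190200, 106 counts, 29.4 per kb) lay 4.34 Mb away. The 2 regions covered 23.2% of the 0.6 Mb of the locus and made up 21.8% of the covered length of the long arm between the centromere and the end.

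**Figure D2:**
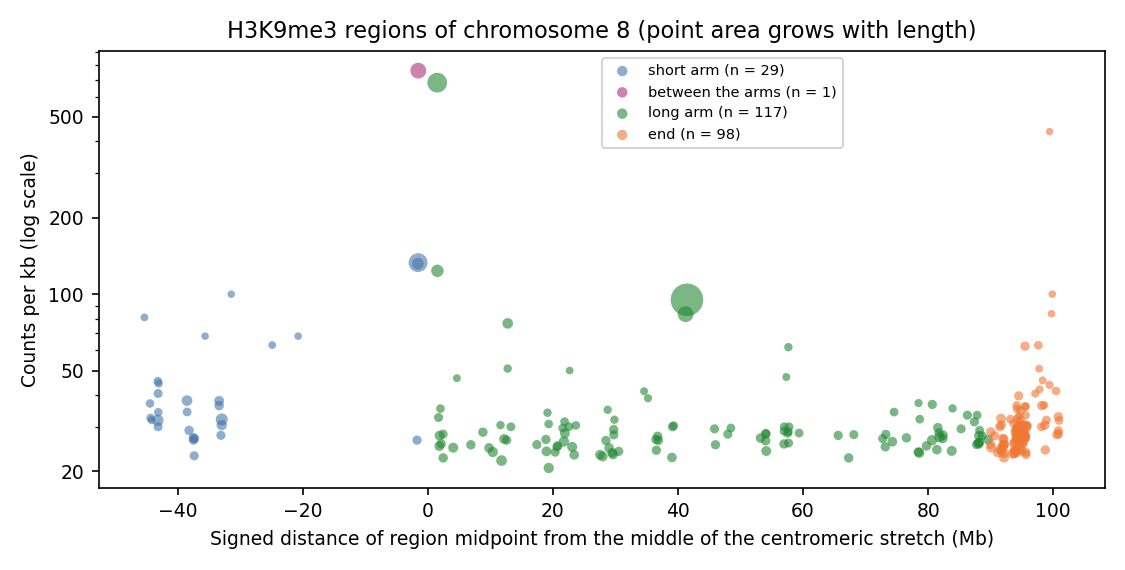
Each of the 245 points is a region, placed by the signed distance (Mb) of its midpoint from the middle of the stretch without regions at the centromere; the vertical axis gives counts per kb on a log scale, and point area grows with length. The regions beside the centromere reach 761.2 counts per kb, the 2 large points of the locus lie at 83.4 and 95.03, and most other regions form a band between 20 and 40.

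On the short arm, regions were concentrated near the tip. Of the 27 that did not lie beside the centromere, 23 were in the first 12.4 Mb, and the other 4 were spread over 29.7 Mb. A group of 6 regions (2193801 to 2331000) covered 22.8 kb and had a median of 37.4 counts per kb, from 30 to 45.4. Another 7 lay between 6859601 and 8033200, with a median of 27.1 per kb, from 23.1 to 38.1. A further 5 lay between 11988601 and 12414600, with a median of 32.1 per kb, from 27.8 to 38.0. These 3 groups were chosen after their values were seen. The last group held the longest short-arm region away from the centromere (12404001 to 12414600), which measured 10.6 kb and held 340 counts. The longest region of the first group (2205201 to 2214000) measured 8.8 kb and held 280 counts. The band 8p23.1 is known for defensin genes, which encode antimicrobial peptides, and for 2 blocks of duplicated sequence that flank a common inversion. The groups near 7 and 12 Mb lie in the parts of 8p where those blocks are known to be, but overlap with them was not computed.

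Few short-arm regions lay away from the tip. The 4 regions between 13926801 and 43631800 held at least 40 counts each, and 3 of them were at most 1 kb long and over 1 Mb from any other region. The other one (43628001 to 43631800) measured 3.8 kb and lay 136.2 kb from the regions beside the centromere. The first region of the chromosome (45601 to 46600) was also 1.0 kb long and held 81 counts. In all, 5 of the 29 short-arm regions measured 1 kb or less (17.2%), against 1 of 117 on the long arm (0.85%) and 3 of 98 in the end (3.06%). The median density of the 27 short-arm regions, 34.2 counts per kb (quartiles 29.5 and 42.5), was above the 27.6 of the long arm (quartiles 25.3 and 30). The ranges between quartiles overlap.

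The long arm between the centromere and the end carried fewer regions per Mb than the end but more than the short arm. Its regions were unevenly spaced but mostly similar in density. Leaving out the locus and the regions beside the centromere, 113 regions spread over 87.6 Mb, and 106 of them had between 20 and 40 counts per kb. Lengths had a median of 4000 bp (quartiles 3200 and 4800 bp), and none reached 10 kb. In successive stretches the median density barely moved: it was 27.3 counts per kb over 20 regions from 47068601 to 58636000, 26.6 over 38 regions from 62781801 to 84653200, and 27.8 over 55 regions from 91186601 to 134923400. The other 7 lay above this band, between 41.4 and 76.7. The densest (58122201 to 58129200) held 537 counts over 7.0 kb, or 76.7 per kb, and its neighbour (58116601 to 58118800), 3.4 kb before it, held 112 counts over 2.2 kb, or 50.9 per kb. The 3 bins of 5 Mb before the end held 5, 11 and 12 regions, and the first bin of the end held 45. The last region before the end (134918601 to 134923400) had 26.7 counts per kb and the first one of the end (135339601 to 135343400) had 25.5.

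The end of the chromosome differed from the long arm in the number of regions and little in their size or density. The median of the 98 lengths was 4000 bp, the same as on the long arm (quartiles 3000 and 5000 bp). In density their median was 28.6 counts per kb (quartiles 25.9 and 32.1), and 87 of 98 lay between 20 and 40. At 11 lengths from 2600 to 5200 bp that had at least 3 regions in each part, the median count in the end was higher at 9 and lower at 2, with a median ratio of 1.03 (range 0.95 to 1.18). The longest region of the end (140133601 to 140145400) measured 11.8 kb and held 341 counts, or 28.9 per kb. It was 1 of only 2 regions of 10 kb or more outside the centromere and the locus.

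Within the end, 54 of the 98 regions fell into 2 neighbouring bins of 1 Mb. Counted from the start of the end part, the first 4 bins held 4, 4, 10 and 2 regions. The next 2 bins held 25 and 29, covering 106.6 and 139.6 kb, and the bins after them held between 2 and 7. The 57 regions from 139000801 to 141201200 covered 11.7% of that stretch, with a median of 28.3 counts per kb. The largest cluster, with neighbours under 100 kb apart, held 19 regions between 140524801 and 141078400, covered 81.4 kb and had a median of 28.0 counts per kb. The next held 18 regions between 139182601 and 139635200 (79.2 kb covered, 27.9 per kb), and the third held 12 between 140104401 and 140306200 (66.0 kb covered, 28.7 per kb). The third was the most tightly filled of the 3, with 32.7% of its span covered, against 14.7% and 17.5%. The fourth held 8 regions between 137277001 and 137502000, and the fifth was the group of 6 on the short arm.

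**Figure D3:**
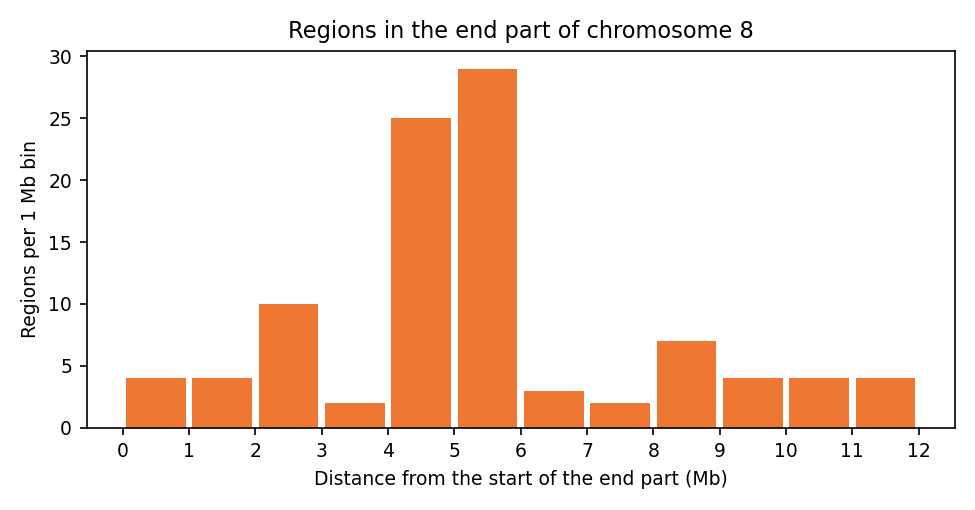
Bars give the number of regions per 1 Mb bin in the end of chromosome 8, by distance (Mb) from the start of that part; the last bin is cut by the last region. The bins at 4 and 5 Mb hold 25 and 29 regions, and none of the others holds more than 10.

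A stretch of 1.26 Mb without a region divided the end, and the regions on its far side were shorter and denser. Up to 141201200, 77 regions had medians of 4200 bp and 27.8 counts per kb (quartiles of density 25.6 and 30.3). From 142463801 on, 21 regions had medians of 2800 bp and 36.5 counts per kb (quartiles of density 30.5 and 45.7). Density also fell with length on this chromosome, so each region was set against the median count of regions of its own length on the other autosomes. This ratio had a median of 1.04 over the 21 distal regions and of 0.96 over the 76 proximal ones with a value. The difference in density at equal length was thus much smaller than that in density alone. The division was chosen after its values were seen. The last 4 regions (146149401 to 146259200) formed a cluster of their own at a median of 30.4 counts per kb. The last region of all (146256401 to 146259200) held 89 counts. The band 8q24.3 is known for a group of zinc finger genes near the end of the chromosome, but overlap with genes was not computed.

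Across the chromosome, longer regions had more counts and fewer counts per kb. Over the 238 regions outside the centromere and the locus, the rank correlation of length with count was 0.86 and that of length with density was -0.66. It was similar in each part, with -0.59 over 27 short-arm regions, -0.73 over 113 of the long arm and -0.70 over 98 of the end. Density is count divided by length, so a short region needs a higher density to reach a given count, and length enters both sides of the second correlation. All regions come from the same libraries and had to pass the same caller. How far either point shaped the correlation was not tested. No chromosome 8 region had fewer than 40 counts, and all 9 regions of 1 kb or less had between 40 and 175.

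A few regions held far more than others of their length. The densest outside the centromere (144751601 to 144752000) held 175 counts in 400 bp, or 437.5 per kb (exact 95% Poisson interval 375.1 to 507.3), which was 4.38 times the median of regions of that length on the other autosomes. It ranked 3 on the chromosome by density and was 6.6 kb from its neighbour. The region at 58122201 to 58129200 held 2.52 times the median of its length. The one at 140815001 to 140819200, with 262 counts, held 2.26 times, and the one at 142953201 to 142956000, with 176 counts, held 1.98 times. By density alone, 12 regions outside the centromere and the locus had 60 or more counts per kb, of which 8 were at most 1 kb long. By part, 5 of the 12 were on the short arm, 2 on the long arm and 5 in the end. Not all of them held much for their length. At 600 bp, the regions that start at 9753001 and 24623201 held 41 counts each and the one at 145180401 held 60. The median of that length on the other autosomes was 50.5. The region at 13926801 to 13927200 held 40 counts in 400 bp, equal to the median of its length.

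**Figure D4:**
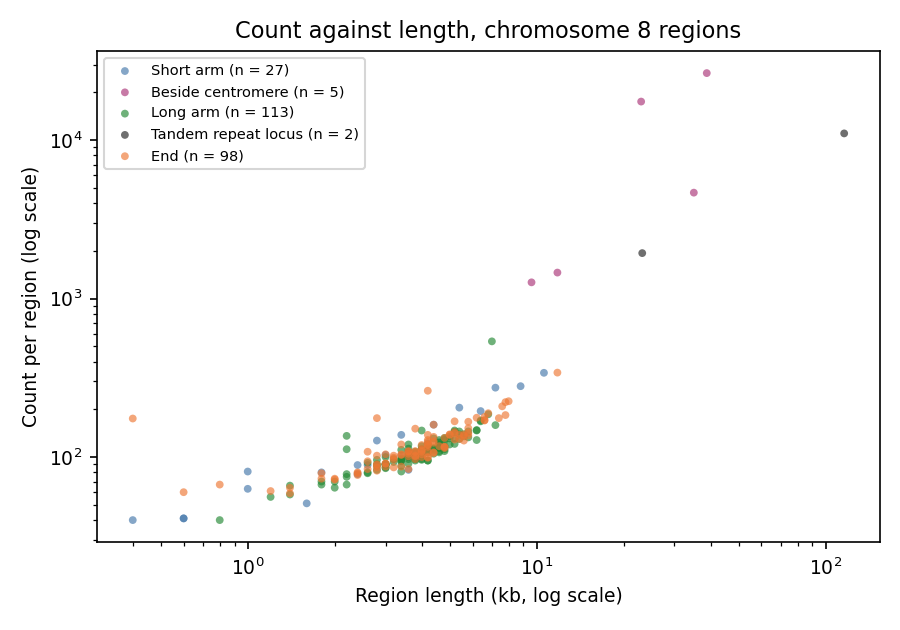
Count per region is plotted against region length (kb), both on log scales, for the 245 regions in 5 groups. Most regions of the short arm, long arm and end lie along one band, with a few above it. The 5 regions beside the centromere and the 2 of the locus lie above it too. Beyond 11.8 kb these are the only regions, so the band has none of like length there.

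Regions of the end lay closer together than those of the arms. Neighbouring regions were separated by a median of 35.6 kb in the end, 127.7 kb on the short arm and 260.6 kb on the long arm. The quartiles were 8.4 and 113.6 kb in the end, 14.15 and 1120.7 kb on the short arm, and 93.4 and 963.5 kb on the long arm. Gaps under 100 kb made up 72.2% of those in the end, 42.9% on the short arm and 26.7% on the long arm. With neighbours under 100 kb apart joined, 84 of 98 regions of the end were in clusters, against 52 of 117 on the long arm and 20 of 29 on the short arm. Gaps under 3 kb numbered 16 on the chromosome, 10 of them within the end.

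The longest stretch without a region was on the short arm, 19.0 Mb from 24623801 to 43628000. The next was 6.55 Mb (13927201 to 20479200), also on the short arm. On the long arm there were 6.25 Mb (104707201 to 110952600), 4.74 Mb (93806801 to 98549400) and 4.62 Mb (113455401 to 118071400). The threshold of the list is not known, so such a stretch shows no call and not an absence of H3K9me3.

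Set beside the other autosomes, chromosome 8 ranked 4 of 22 by number of regions, after chromosomes 20, 16 and 3. It ranked 8 by regions per Mb of the span between its first and last region, with 1.68 against a range of 0.26 to 6.77. Its median density of 28.3 counts per kb was the lowest of the 22, which ranged up to 48.1. Chromosomes 10, 20 and 13 followed closely with 28.5, 28.9 and 29.1, and chromosome 3 had 30.2. By the summed count over the summed length, chromosome 8 had 76.3 per kb and ranked 10. This second summary is weighted towards the few dense and long regions. At equal length, its median count was below that of the other autosomes together at 22 of 26 lengths from 600 to 6600 bp, with a median ratio of 0.95 (range 0.81 to 1.05). Such a ratio is not given here for any other single autosome, so it cannot be called particular to chromosome 8. The long arm without the locus and the regions beside the centromere had 84 of 113 regions below the autosomal median of their length and a median ratio of 0.95. The end had 52 of 97 below and a median of 0.98, and the short arm had 11 of 26 below and a median of 1.03.

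Some other chromosomes also had many regions near their last one. In the last 11.3 Mb before the last region, the length of the end part, chromosome 8 held 98 regions, chromosome 20 held 130, chromosome 19 held 103, chromosome 10 held 80, chromosome 16 held 77 and chromosome 13 held 75, whereas chromosome 3 held 9. These were 40% of the regions of chromosome 8, 30.6% of chromosome 20, 50.2% of chromosome 19, 34.5% of chromosome 10, 19.2% of chromosome 16 and 33.2% of chromosome 13. The window is a larger part of a shorter chromosome, so these percentages are not on one scale. Spans from first to last region were 146.2 Mb on chromosome 8, 62.8 Mb on chromosome 20 and 58.1 Mb on chromosome 19. Median densities in the window lay close together on these chromosomes, at 28.6 counts per kb on chromosome 8, 29.2 on chromosome 20, 28.9 on chromosome 19, 28.8 on chromosome 10, 28.5 on chromosome 16 and 29.3 on chromosome 13. Median lengths were 4000, 3900, 4200, 3800, 4000 and 3800 bp in the same order. These chromosomes were the ones with the most regions in the window. Over all 22 autosomes, the window held a median of 20 regions, and the median of the chromosomes' median densities there was 34.0 counts per kb. The 2 richest 5 Mb bins of chromosome 8, the first 2 of its end, held 45 regions each and shared rank 11 among autosomal bins, where the richest, on chromosome 20, held 88.

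**Figure D5:**
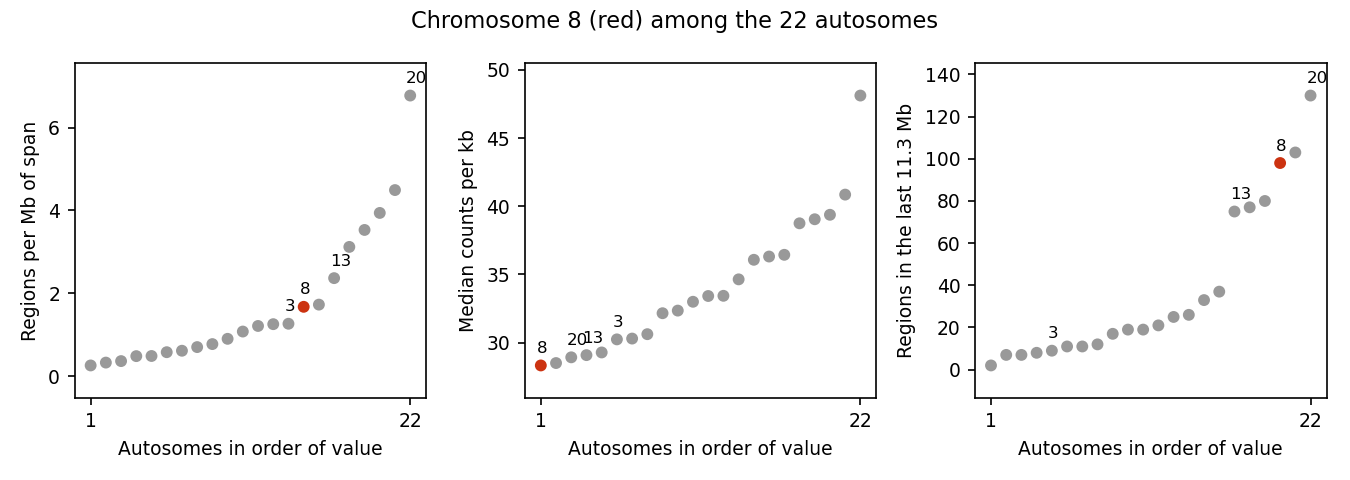
Each panel orders the 22 autosomes by one measure: regions per Mb of the span between first and last region, median counts per kb, and regions in the last 11.3 Mb before the last region; chromosome 8 is red and chromosomes 3, 13 and 20 are numbered. Chromosome 8 has rank 8 in the first panel (1.68), is lowest in the second (28.3) and has rank 3 in the last (98).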

How the data were processed

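Chromatin of BJ-HELT cells was precipitated with an antibody against H3K9me3 and sequenced on SOLiD, per the labels' protocols (2 precipitates, 2 inputs). Per the submitters' processing notes, the tools were Bowtie, an aligner, and SICER, a caller of broad regions, and the build was hg19 (GRCh37). How reads were filtered, which settings were used and whether replicates were pooled is not given in the sources used here. Nothing in the labels says whether replicates were separate cultures. The authors deposited 1 list without a header, giving chromosome, start, end and a whole number read as the count per region, unscaled. The number was taken as a count because it was whole and at least 27. This does not show what was counted, so the reading is an assumption. Every start and end fell on a 200 bp grid, which concerns the positions and not this number. Positions are printed from 1. Density is count divided by length in kb. Regions were assigned by midpoint; the end ran from 135 Mb to the last region. Clusters joined gaps under 100 kb. Lengths at which chromosome 8 and the other autosomes were compared had at least 3 and 10 regions; ratios of single regions used lengths with at least 10 on the other autosomes.

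The members, bounds and lists were chosen with earlier results of these data known. Regions named were the 10 longest, the 5 with the highest count and the 5 with the highest density, those of the locus and next to each bound, the first and last, the 5 largest clusters and the 5 longest empty stretches; others were chosen after their values were seen. No test was run, since the list has no value per library. Neither hg19 sequence nor its annotation was used here. The summaries were checked on simulated regions. The work was done in Python 3.11.15 with pandas 2.3.3, numpy 2.4.6, scipy 1.17.1 and, for figures, matplotlib 3.10.9.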

Additional observations from a re-analysis of the deposited data

How the results depend on the processing

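No paired analysis was possible because libraries have no columns of their own in the list; leaving out a replicate was impossible too. Of 103 alternative values, 76 stayed within 1.5 times of the value reported or, for shares of the count, within its 95% interval. Some of these 76 could not move, because the alternative changed no region of that part. This held for the number, length and density of the locus regions under the filters on count and on length. The 76 are therefore no measure of stability. The other 27 follow from how each alternative is built: 23 from which regions it keeps or where it puts them, and 4 from another summary or another length in Mb. Keeping regions at or above the list's median count lowered regions per Mb to 0.30 (short arm), 0.57 (long arm) and 4.26 (end) and gave shares of the count of 59.0% (long arm), 9.18% (end) and 16.1% (locus). Regions over 1 kb gave 9.80% (short arm), 58.4% (long arm) and 12.7% (end). Joining regions under 3 kb apart moved the short-arm share to 3.60%, since the joined region lies past the bound. An end from 130 Mb gave 14.4% (end) and 56.6% (long arm), and one from 140 Mb gave 7.09% and 63.9%. Without the longest region the shares were 11.4% (short arm), 52.3% (long arm), 14.7% (end) and 2.38% (locus). The long arm without the locus had 44.0%. Without the regions beside the centromere, an alternative chosen after the data were examined, they were 8.12%, 62.6%, 29.2% and 31.7%. Over its own span the locus had 6.92 regions per Mb, against 3.33 over its 0.6 Mb, and both values rest on 2 regions. Summed count over summed length gave 65.04 (short arm), 83.9 (long arm) and 76.3 (chromosome) counts per kb in place of medians. The median density of chromosome 8 ranked lowest of the 22 autosomes in 3 of 5 settings, the main one included; with the median-count filter it ranked 20 (27.7 counts per kb) and by the summed count 10.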
